A study of Mus musculus with 6 samples.

Results

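Apolipoproteins are the protein components of lipoprotein particles, and 10 of their genes were followed here in mouse liver: Apoa1, Apoa2, Apoa4, Apoa5, Apob, Apoc1, Apoc2, Apoc3, Apoe and Apom. They were taken by symbol from the 20140 genes listed in the count table, a rule without measured values, although the family itself was picked with earlier results of these data known. All 10 passed the filter on low counts that left 16370 genes for testing. The 6 libraries were poly(A)-selected RNA from whole liver tissue taken on day 21, with 2 biological replicates in each of 3 groups. The sham livers (labelled control) came from mice given PBS, the PMN livers (labelled intra-C) from mice bearing CT26 cells, a colorectal carcinoma line of BALB/c origin, in the cecum, which the study uses as a model of the premetastatic niche (PMN), and the metastasis livers (labelled intra-S) from mice given CT26 cells into the spleen. Beyond these short names the labels give only the cell line and the day, so the routes are taken from the models the study describes in BALB/c mice, and no genotype, age or sex is given in the labels. The route of tumor delivery and the liver state changed together and cannot be told apart, and RNA of CT26 cells in a metastasis liver is mouse RNA too.

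Hepatocytes make most plasma apolipoproteins and load them onto very low density lipoprotein (VLDL), which carries triglyceride out of the liver, and onto high density lipoprotein (HDL), which returns cholesterol to it. Some apolipoproteins are scaffolds of a particle (Apob for VLDL, Apoa1 and Apoa2 for HDL), some are ligands for uptake receptors (Apoe), and others switch lipoprotein lipase, the enzyme that strips triglyceride from particles, on (Apoc2, Apoa5) or off (Apoc3). In inflammation serum amyloid A proteins join HDL beside Apoa1.

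Library totals lay between 32838321 and 43368309 counts. The 12 hepatocyte markers were present in every library, with a summed level of 104891 to 165224 in TPM, the deposited level per transcript length and library, and with the test used throughout (edgeR's quasi-likelihood test with Benjamini-Hochberg adjustment over all tested genes, called at an adjusted p under 0.05) none was called in the PMN livers and 1 was called lower in the metastasis livers. All 8 neutrophil markers and 6 of 7 macrophage markers were called higher in both tumor groups, Kupffer cell markers were called higher in 5 of 5 and 4 of 5 cases, and all 5 erythroid markers were called higher in the metastasis livers. Of 4 endothelial markers 2 were called higher in each tumor group, and of 4 stellate cell markers 2 and of 4 cholangiocyte markers 1 were called higher in the metastasis livers and none in the PMN livers; the part of these cells in the results below was not tested. The metastasis livers differed most from each other, with a chi-square of 337 per degree of freedom over gene counts, against 24.8 for the sham livers and 73.1 for the PMN livers, so the results that rest on metastasis liver 1 are given with and without it.

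Together the 10 genes took 4.80% and 4.71% of all counts in sham, 3.22% and 3.31% in PMN and 3.70% and 3.99% in metastasis livers. The group means were 4.76% ± 0.0670 (SD, n = 2), 3.27% ± 0.0672 and 3.84% ± 0.207, and the groups did not overlap. The exact 95% binomial interval of the first value ran from 4.80% to 4.81% and covers counting error only. With the 100 most abundant other genes left out of the total, the means became 7.72%, 6.92% and 8.36%, so the place of the metastasis livers relative to sham depended on the denominator. In bulk tissue, fewer hepatocytes and less RNA per hepatocyte cannot be told apart. With 2 livers against 2 no exact permutation test can pass the threshold, and none was run on these shares.

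By the deposited TPM, a level per length meant for comparing genes, the make-up of this pool differed between sham and tumor livers. The gene lengths behind these TPM are not given, and the order of the genes within a group depends on them. In the sham livers Apoa2 led with 17068 ± 695 TPM (SD, n = 2), followed by Apoa1 with 13679 ± 1455 TPM and Apoe with 13658 ± 950 TPM. Apoa1 and Apoe overlapped. Apoc1 (7480 TPM), Apoc3 (5586 TPM), Apoa5 (1293 TPM), Apob (505 TPM), Apoa4 (238 TPM), Apom (55.6 TPM) and Apoc2 (19.0 TPM) followed in that order without overlap between neighbours. In all 4 tumor livers Apoa1 was the highest of the 10. In the PMN livers it stood at 20967 ± 1635 TPM, above Apoe at 6799 TPM and Apoa2 at 5948 TPM, and the neighbours Apoc3 and Apoc1, and Apoa5 and Apob, overlapped. In the metastasis livers Apoa1 stood at 20707 ± 8558 TPM, the next 5 genes (Apoc3, Apoe, Apoa2, Apoa4 and Apoc1) each overlapped their neighbour within these 5, and Apoa5, Apob, Apom and Apoc2 kept that order below them.

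**Figure D1:**
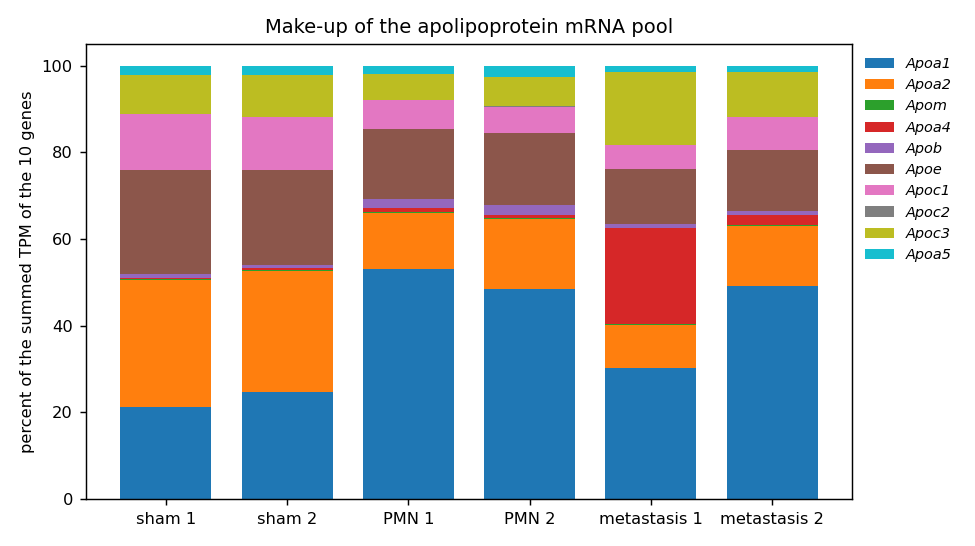
Each bar is one liver, and its colored parts are the percent of the summed TPM of the 10 genes that each gene took. Apoa1 took at most 24.7% of the pool in a sham liver and between 30.1% and 53.1% in the 4 tumor livers, and Apoa4 took 22.3% in metastasis liver 1.

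Of the 10 genes, 1 was called higher and 2 were called lower in the PMN livers than in sham, where 7.3% of all tested genes were called, 4.92% higher and 2.38% lower. Apob rose, and Apoa2 and Apoc1 fell. In the metastasis livers 1 was called higher and 2 were called lower, where 10.7% of all tested genes were called, 6.78% higher and 3.95% lower. Apoa4 rose, and Apoa2 and Apoc2 fell. Both comparisons use the same sham livers. The median log2 fold change of the 10 genes was −0.53 for PMN and −0.15 for metastasis, beside 0.01 and 0.04 over all tested genes and −0.49 and −0.16 over the 12 hepatocyte markers. DESeq2, run as an alternative, called 2 of the 10 genes higher and 4 lower in each comparison with sham, where it called 16.3% of genes in the PMN livers (10% higher, 6.31% lower) and 19.5% in the metastasis livers (11.5% higher, 8.03% lower).

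The 10 genes often separated the groups without overlap, but so did many genes. Both PMN livers lay above both sham livers for 4 of the 10 genes and below them for 6, where 34.4% and 34.0% of all tested genes did so. For the metastasis livers the counts were 4 above, 5 below and 1 overlapping (Apob), where 30.4% and 30.0% of all genes lay above and below. The plot of levels by liver shows these positions.

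**Figure D2:**
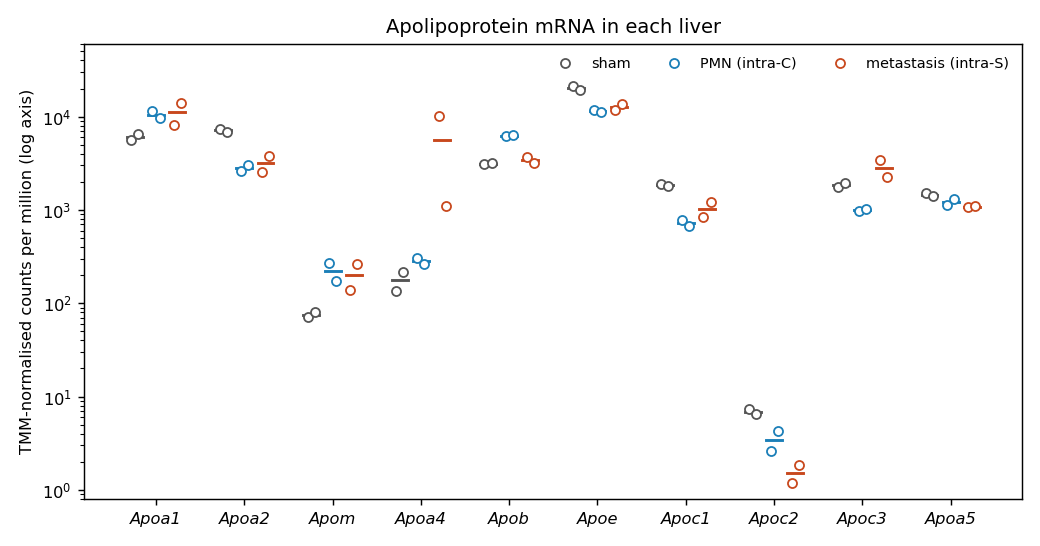
Points are the TMM-normalised CPM of each liver on a log axis, 2 livers per group, and short lines are group means. Both PMN livers lie apart from both sham livers for every gene, and Apoa4 in metastasis liver 1, at 10201, lies far above the 5 other livers.

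Of the HDL scaffolds Apoa1 and Apoa2, Apoa2 was called lower in both tumor groups and Apoa1 was called in neither. Apoa2, which encodes the second most abundant protein of HDL, stood at 7303 and 6912 CPM (counts scaled to a common library size after TMM normalisation) in sham, 2607 and 3018 CPM in PMN and 2579 and 3757 CPM in metastasis livers. Every tumor liver was below both sham livers, and the tumor groups overlapped each other. Apoa2 fell by 1.34 on the log2 scale in the PMN livers (SE 0.27, edgeR adjusted p = 0.0371) and by 1.17 in the metastasis livers (SE 0.26, edgeR adjusted p = 0.0421). Both calls were lost with any sham or PMN liver left out, while the fold changes stayed between −1.46 and −0.92 whichever liver was left out. Over all tested genes, no call was left without either sham liver, and far fewer were left without a PMN liver. The loss is therefore not particular to Apoa2 or to the genes below and says little about any single gene. Scaling to the hepatocyte markers instead of TMM gave −0.84 and −0.85 and ended both calls (edgeR adjusted p = 0.360 and 0.389). The metastasis call was also lost in a fit of those 2 groups alone (edgeR adjusted p = 0.111), and the PMN call with limma on log2(TPM + 0.1) (adjusted p = 0.0534).

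Apoa1, the main HDL protein and the activator of the cholesterol-esterifying enzyme LCAT, stood at 5554 and 6474 CPM in sham, 11445 and 9599 CPM in PMN and 8193 and 13960 CPM in metastasis livers. All 4 tumor livers lay above both sham livers, but the difference did not pass the test, with log2 fold changes of 0.81 (SE 0.32, edgeR adjusted p = 0.163) and 0.88 (SE 0.32, edgeR adjusted p = 0.122). The PMN difference passed in a fit of these 2 groups alone (edgeR adjusted p = 0.00927) and without metastasis liver 1 or 2 (0.00522 and 0.00640). The metastasis difference passed without metastasis liver 1 (1.22, edgeR adjusted p = 0.00289) and did not without metastasis liver 2 (0.45, edgeR adjusted p = 0.0721). The ratio of Apoa1 to Apoa2, each in TPM, needs no scaling between libraries. It was 0.720 and 0.887 in sham, 4.16 and 3.01 in PMN and 3.01 and 3.52 in metastasis livers. By the deposited TPM this ratio was at least 3 in every tumor liver, and both sham livers held less Apoa1 than Apoa2. Its size depends on the gene lengths behind the TPM, which are not given, while its change between groups does not. GENCODE gives 1236 exonic bases for Apoa1 and 537 for Apoa2. In sham, 6014 CPM of Apoa1 stood at 13679 TPM and 7108 CPM of Apoa2 at 17068 TPM, so the TPM rest on other lengths.

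Apom, which encodes the carrier of sphingosine 1-phosphate on HDL, was a minor transcript. It stood at 71.7 and 79.6 CPM in sham, 267 and 172 CPM in PMN and 138 and 264 CPM in metastasis livers. All tumor livers were above both sham livers, and the differences of 1.54 (SE 0.37) and 1.41 (SE 0.37) on the log2 scale lay just outside the threshold (edgeR adjusted p = 0.0588 and 0.0597). With DESeq2 both passed, at adjusted p-values of 0.00217 and 0.00501. The metastasis difference was 1.81 without metastasis liver 1 and 0.87 without metastasis liver 2, and passed in both fits (edgeR adjusted p = 0.00415 and 0.0386). By the correlation of log2 CPM over the 6 livers, among 7261 genes with a mean of at least 10 CPM, the patterns most like Apom were those of Tra2b (Pearson r 0.994), Tent5a (0.991) and Kng2 (0.987), a description over 6 points that share their libraries.

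The starting regions of the HDL scaffold genes are shown because the ratio of these 2 genes separated the tumor livers from sham, with those of Apob and Apoa4, the members that rose. The sequences come from RefSeq (GRCm38.p6), from a promoter table in which 8 of the 10 genes were matched (Apoc1 and Apoc3 were not analysed here), and run 5′ to 3′ on the gene's strand up to a RefSeq start, cut before any other gene start that GENCODE or RefSeq places inside the 250 bases. The Apoa2 region lies within the RefSeq gene model, which begins further upstream at position 171221564. Capitals mark every match on either strand to the forkhead (FOXA) letters TGTTTAC or TGTTTGC, where the second form reads GCAAACA on the other strand.
Apoa1 (chr9:46228380-46228579, plus strand): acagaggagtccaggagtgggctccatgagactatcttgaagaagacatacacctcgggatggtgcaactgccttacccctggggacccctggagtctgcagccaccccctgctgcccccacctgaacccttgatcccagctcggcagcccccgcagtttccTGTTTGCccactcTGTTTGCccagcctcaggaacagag
Apoa2 (chr1:171224804-171225053, plus strand): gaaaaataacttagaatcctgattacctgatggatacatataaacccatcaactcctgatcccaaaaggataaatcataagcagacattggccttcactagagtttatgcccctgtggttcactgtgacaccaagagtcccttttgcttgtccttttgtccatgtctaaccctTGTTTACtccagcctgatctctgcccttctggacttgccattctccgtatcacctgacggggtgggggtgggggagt
Apob (chr12:7977427-7977628, plus strand): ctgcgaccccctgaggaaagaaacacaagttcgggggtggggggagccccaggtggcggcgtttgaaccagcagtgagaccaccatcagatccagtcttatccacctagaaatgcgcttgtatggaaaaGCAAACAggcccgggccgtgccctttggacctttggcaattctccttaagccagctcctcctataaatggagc
Apoa4 (chr9:46240594-46240695, plus strand): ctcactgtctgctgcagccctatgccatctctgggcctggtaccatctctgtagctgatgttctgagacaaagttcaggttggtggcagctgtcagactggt
In the 250 bases before a RefSeq start, 4 of the 8 genes held these letters (Apoa1, Apoa2, Apoa5 and Apob), where 7.29% of 32851 promoters of that length did. The letters were present in Apoa2, which fell in both comparisons, as well as in Apob, which rose in the PMN livers. Of the letter sets searched on either strand, FOXA was found in the most genes. The letters TATAAA were found in 3 of the 8 (12.4% of promoters) and the C/EBP letters TTGCNNAA in Apob alone (9.56%). The STAT letters TTCNNNGAA (7.02% of promoters) and the HNF4 (1.61%) and HNF1 (0.371%) letters were in none of the 8. The search used the uncut 250 bases. Of these, 249 for Apom and 148 for Apoa4 lie after an earlier gene start, and fewer do so for Apoa1, Apob and Apoa5. A match is a description of the letters, not a binding site.

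Apoa4, a protein of intestinal and hepatic lipoproteins whose liver mRNA in mice is known to be strongly inducible, had the largest change of the 10 genes. It stood at 135 and 218 CPM in sham, 307 and 261 CPM in PMN and 10201 and 1099 CPM in metastasis livers. Both metastasis livers lay above all 4 others, and metastasis liver 1 lay far above metastasis liver 2. Apoa4 rose by 5.00 on the log2 scale in the metastasis livers (SE 1.03, 95% interval 2.53 to 7.46, edgeR adjusted p = 0.0327), a fold change of 32.0. Without metastasis liver 1 the log2 fold change was 2.64 (edgeR adjusted p = 0.00127), and without metastasis liver 2 it was 5.85 (edgeR adjusted p = 8.52e-05). These fits assume that the lone liver varies like the other groups. The call was lost with any sham or PMN liver left out, as most calls over all genes were. It was also lost with only the metastasis and sham livers in the fit (edgeR adjusted p = 0.0817). The same held with limma on log2(TPM + 1) (3.98, adjusted p = 0.0598) or log2(TPM + 0.1) (3.99, adjusted p = 0.0645). In the PMN livers both values lay above both sham values, with a log2 difference of 0.69 (SE 0.87, edgeR adjusted p = 0.658).

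By TPM, Apoa4 ranked 705 and 490 among all listed genes in sham, 294 and 320 in PMN and 13 and 88 in metastasis livers. In metastasis liver 1 it had the second highest TPM of the 10 genes, at 10821, and its ratio to Apoa1 in TPM was 0.738. That ratio was 0.0467 in metastasis liver 2 and between 0.0145 and 0.0200 in the other livers. Metastasis liver 1 was also the liver with the highest summed hepatocyte markers (165224 TPM) and the lowest serum amyloid A level of the tumor livers (1711 TPM over 4 genes, against 25875 to 54032 TPM). Of 6 enterocyte markers, listed because the intestine is the other main source of Apoa4, Cdh17, Sis and Alpi were not in the count table, and the other 3 summed to 18.0 TPM in this liver, the lowest of all 6. The part of these levels in the Apoa4 result was not tested. The annotation places 2 antisense gene models, Gm47528 and Gm10680, over 34.9% and 34.8% of the exonic bases of Apoa4. The libraries came from a kit that does not mark strand, so reads of the gene and of these models cannot be told apart. The genes most like Apoa4 over the 6 livers were Xpnpep1 (Pearson r of log2 CPM 0.992), Aldoa (0.990) and Dbnl (0.990), as a description.

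Apob encodes the one structural protein of each VLDL particle. It stood at 3075 and 3198 CPM in sham, 6127 and 6393 CPM in PMN and 3691 and 3161 CPM in metastasis livers. Both PMN livers lay above all 4 others, while the metastasis livers overlapped sham. Apob rose by 1.00 on the log2 scale in the PMN livers (SE 0.22, edgeR adjusted p = 0.0456), a fold change of 2.00. In the metastasis livers the difference was 0.13 (95% interval −0.39 to 0.64, edgeR adjusted p = 0.729), and its sign turned with library totals in place of TMM (−0.15). The PMN call was lost with any sham or PMN liver left out, as most calls over all genes were. It was also lost with library totals in place of TMM (edgeR adjusted p = 0.0833), with scaling to the hepatocyte markers (1.49, edgeR adjusted p = 0.0707) and with limma on log2(TPM + 0.1) (adjusted p = 0.0832).

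Apoe and Apoc1 lie side by side on chromosome 7 and both were lower in tumor livers, by different margins against the test. Apoe, the ligand through which remnant particles are taken up by the LDL receptor and LRP1, stood at 21326 and 19376 CPM in sham, 11895 and 11192 CPM in PMN and 11674 and 13534 CPM in metastasis livers. No tumor liver reached the sham range, but the log2 differences of −0.82 (SE 0.23, edgeR adjusted p = 0.0827) and −0.69 (SE 0.23, edgeR adjusted p = 0.103) did not pass. With DESeq2 both did, at adjusted p-values of 0.00255 and 0.0116. Apoc1, which hinders particle uptake, stood at 1904 and 1783 CPM in sham, 789 and 673 CPM in PMN and 830 and 1212 CPM in metastasis livers. It fell by 1.34 on the log2 scale in the PMN livers (SE 0.26, edgeR adjusted p = 0.0360), and the difference in the metastasis livers was −0.85 (SE 0.26, edgeR adjusted p = 0.0838). The PMN call was lost with any sham or PMN liver left out, as most calls over all genes were. It was also lost with scaling to the hepatocyte markers (−0.86, edgeR adjusted p = 0.329) and, at the threshold, with limma on log2(TPM + 0.1). The metastasis difference passed without metastasis liver 1 (−0.60, edgeR adjusted p = 0.0431) and without metastasis liver 2 (−1.15, edgeR adjusted p = 0.00273).

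Of the 3 members that act on lipoprotein lipase, none was called in the PMN livers, where all 3 lay below both sham livers, and Apoc2 alone was called in the metastasis livers. Apoc3, the inhibitor, stood at 1775 and 1933 CPM in sham, 971 and 1018 CPM in PMN and 3449 and 2245 CPM in metastasis livers. It was the one member for which both PMN livers lay below and both metastasis livers above the sham range, where 3.68% of all tested genes had the tumor groups on opposite sides of sham. Against sham neither difference passed, at −0.90 (SE 0.27, edgeR adjusted p = 0.0929) and 0.62 (SE 0.27, edgeR adjusted p = 0.175). The metastasis difference was 0.28 (edgeR adjusted p = 0.204) without metastasis liver 1 and 0.90 (edgeR adjusted p = 0.00321) without metastasis liver 2. Apoa5, which promotes lipase action, stood at 1506 and 1403 CPM in sham, 1126 and 1325 CPM in PMN and 1073 and 1098 CPM in metastasis livers. The tumor livers were all below sham without passing the test, with log2 differences of −0.25 (edgeR adjusted p = 0.489; 0.25 when scaled to the hepatocyte markers) and −0.42 (edgeR adjusted p = 0.227). There was thus less Apoa5 mRNA per Apoc3 mRNA in the metastasis livers (0.0918 and 0.144 in TPM) than in the sham livers (0.250 and 0.214), and more in the PMN livers (0.342 and 0.384), and the 3 groups did not overlap. An antisense gene model, Gm47544, lies over 20.8% of the exonic bases of Apoa5, and its reads cannot be told apart from those of Apoa5 in these libraries.

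Apoc2, the cofactor that lipoprotein lipase requires, was listed at low levels, with 7.27 and 6.45 CPM in sham, 2.62 and 4.24 CPM in PMN and 1.20 and 1.86 CPM in metastasis livers. The 3 groups did not overlap. Apoc2 fell by 2.16 on the log2 scale in the metastasis livers (SE 0.39, edgeR adjusted p = 0.0240), and stood at 0.500 of the sham level in PMN livers (log2 SE 0.37, edgeR adjusted p = 0.149). The metastasis call held without metastasis liver 1 (−1.87, edgeR adjusted p = 0.0202). That call was lost with any sham or PMN liver left out, as most calls over all genes were. It was also lost in a fit of the metastasis and sham livers alone (edgeR adjusted p = 0.0550) and with scaling to the hepatocyte markers (−1.85, edgeR adjusted p = 0.107). These levels are uncertain, because 646 of the 813 exonic bases of Apoc2 (79.5%) are shared with a gene model on the same strand, Gm44805, that is not in the count table, and the sources used here do not state how reads in both genes were treated.

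**Figure D3:**
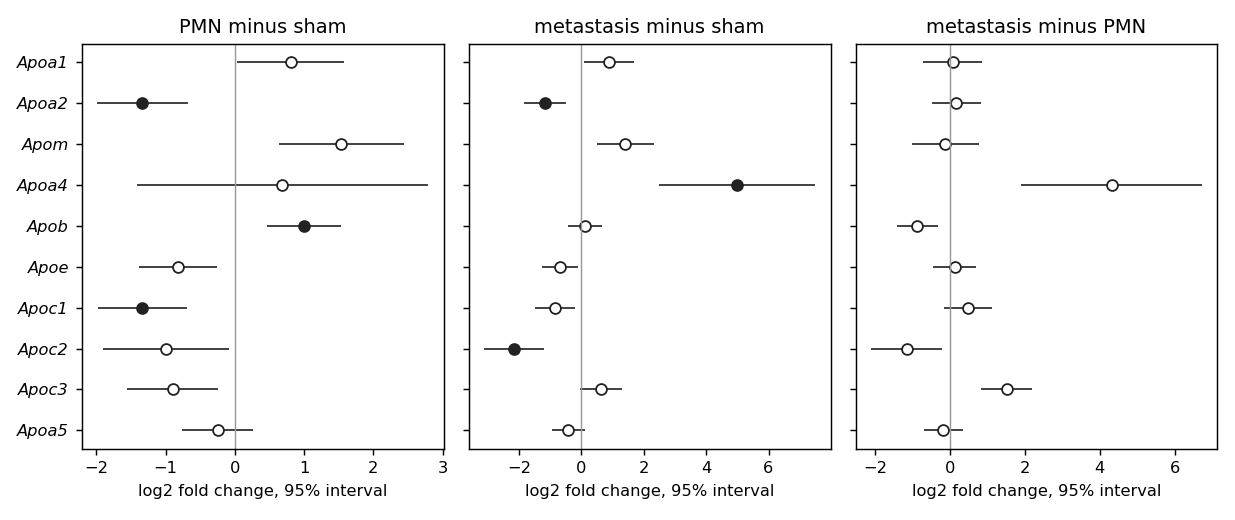
Points are log2 fold changes of the 10 genes with their 95% intervals, for the PMN against sham, the metastasis against sham and the metastasis against PMN comparison, filled where the edgeR adjusted p was under 0.05. Apoa4 has the largest change (5.00 in metastasis against sham) and the widest interval, and no point is filled in the right panel.

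Compared directly, the metastasis and PMN livers gave no called member, and edgeR called 0.0% of all 16370 tested genes. At an unadjusted p under 0.05, 4 of the 10 genes differed, and over all genes 1144 were higher and 1049 lower. These were Apoa4, with a log2 difference of 4.31 (SE 0.99), Apoc3 with 1.52 (SE 0.27), Apob with −0.87 (SE 0.22), each at an edgeR adjusted p of 0.285, and Apoc2 with −1.16 (SE 0.38, edgeR adjusted p = 0.323). DESeq2 called Apoa4 and Apoc3 higher and Apob lower in the metastasis livers (adjusted p = 1.97e-05, 0.000100 and 0.00560), where it called 3.36% of genes, 1.55% higher and 1.81% lower. Without metastasis liver 1 the log2 differences of the same 3 genes were 1.95, 1.17 and −0.99, and that of Apoc2 was −0.87. Without metastasis liver 2 they were 5.16, 1.79 and −0.76, and that of Apoc2 was −1.52. Each of these fits holds a lone metastasis liver, and far more of all genes were called without liver 2 than without liver 1, so their calls are not read. Between these groups 3 members lay all above, 3 all below and 4 overlapped, where 21.8% and 21.5% of all tested genes lay all above and all below.

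Of the 10 genes, 7 lie in 2 clusters. On chromosome 9, Apoa1, Apoc3, Apoa4 and Apoa5 lie within 43.3 kb (mm10 46228630 to 46271921), and their log2 fold changes ran from −0.90 to 0.81 for PMN and from −0.42 to 5.00 for metastasis. Of the 3 other tested genes within 100 kb, 1 was called. Bud13, a splicing factor gene, stood at 3.97 and 4.41 CPM in sham and 10.1 and 12.1 CPM in PMN livers, a rise of 1.40 on the log2 scale (SE 0.24, edgeR adjusted p = 0.0280). On chromosome 7, Apoe, Apoc1, Apoc4 and Apoc2 lie within 29.7 kb (mm10 19671579 to 19701310). With TMM scaling all 4 had negative log2 fold changes in both comparisons, from −1.34 to −0.61 and from −2.16 to −0.20, and none of the 10 other tested genes within 100 kb was called, although at an adjusted p under 0.05 only 1 of these 4 was called in each comparison too. The closest gene to Apoe, Tomm40, differed by −0.55 (SE 0.26, edgeR adjusted p = 0.226) and −0.10 (SE 0.26, edgeR adjusted p = 0.831).

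**Figure D4:**
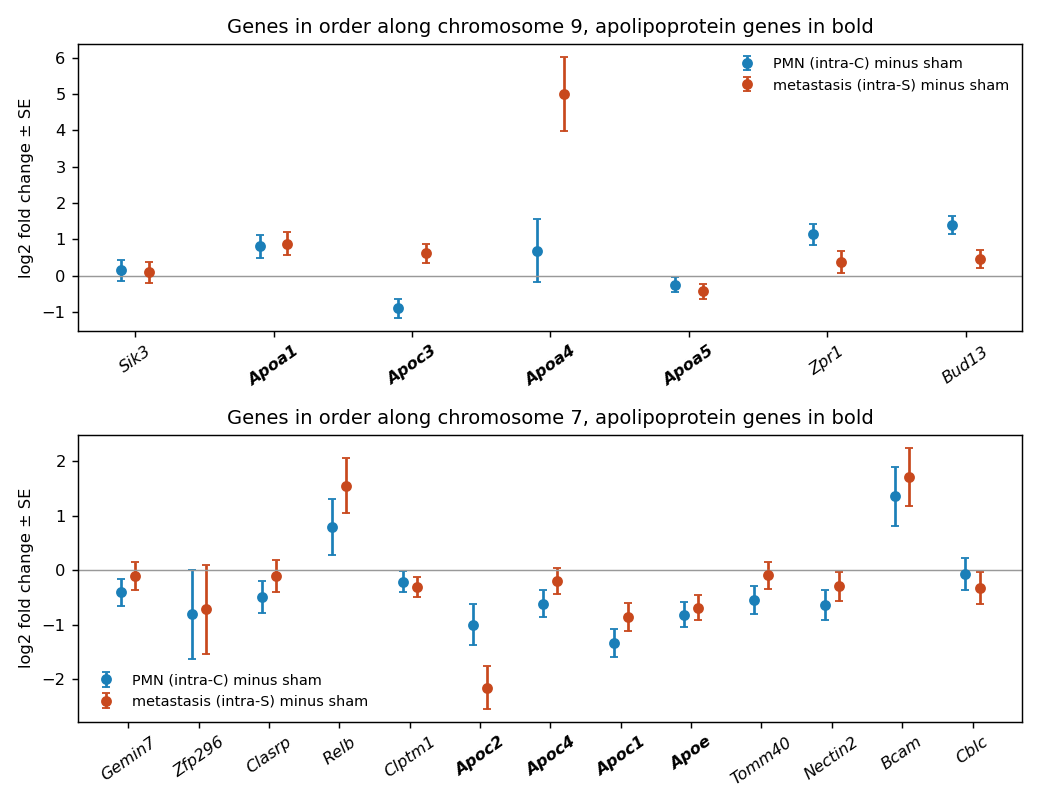
Log2 fold changes against sham with their SE are drawn for the tested genes within 100 kb of each apolipoprotein cluster, in chromosomal order and without distances. Gm34744, with almost no counts, is left out, and in the upper panel Apoa4 stands apart from its neighbours in the metastasis livers.

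The genes around the apolipoproteins were read as 8 lists with 77 tested genes. In the PMN livers 8 were called higher and 5 lower (10.4% and 6.49%, beside 4.92% and 2.38% of all genes). In the metastasis livers 8 were called higher and 10 lower (10.4% and 13.0%, beside 6.78% and 3.95%). The median log2 fold change was −0.09 and −0.35. None was called between the tumor groups, where DESeq2 called 2 higher and 5 lower (1.55% and 1.81% of all genes). The lists were chosen with earlier results of these data known.

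Of 5 tested family members outside the 10, only Clu, a chaperone carried on HDL, was called. It went from 984 and 878 CPM (sham) to 1940 and 2005 CPM (PMN), and rose by 1.08 on the log2 scale (SE 0.22, edgeR adjusted p = 0.0397), while the metastasis difference was 0.54 (edgeR adjusted p = 0.160). Apoc4, Apof, Apoh and Apon did not pass in either comparison. Among the 77 genes, the serum amyloid A genes Saa1, Saa2 and Saa3, whose products displace Apoa1 on HDL, had the largest fold changes in both comparisons. Saa1, at 17.4 and 61.1 CPM in sham, reached 7567 and 12394 CPM in PMN and 613 and 6515 CPM in metastasis livers, and rose by 7.99 (SE 1.40, edgeR adjusted p = 0.0283) and 6.50 (SE 1.31, edgeR adjusted p = 0.0313) on the log2 scale. Leaving out 1 liver gave 7.36 (without sham liver 1) to 9.17 (without sham liver 2) for Saa1 in the PMN livers, and 3.96 (without metastasis liver 2) to 7.68 (without sham liver 2) in the metastasis livers. Saa2 and Saa3 also rose in both comparisons. The metastasis log2 fold change was 7.11 for Saa2, or 3.21 without metastasis liver 2, and 5.55 for Saa3, or 4.33 without that liver. Saa4 passed in neither comparison, with log2 differences of 2.29 and 1.16. Its level was 254 ± 33.5 CPM in sham and 567 ± 708 CPM in metastasis livers (SD, n = 2), where the 2 livers lay on opposite sides of sham. Saa1 and Saa2 are near-identical copies, so the split of reads between them is uncertain.

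Of 15 genes for the assembly and secretion of Apob particles, 1 was called higher and 2 lower in the PMN livers, and 1 higher and 3 lower in the metastasis livers. Sort1, a sorting receptor that binds Apob, rose from 0.936 and 1.54 CPM to between 8.69 and 10.9 CPM in the 4 tumor livers (log2 fold changes 2.92 and 2.98, edgeR adjusted p = 0.0103 and 0.00782). Dgat2, which makes the triglyceride of VLDL, fell by 1.31 and 1.36 on the log2 scale (edgeR adjusted p = 0.0201 and 0.0151). Lpcat3, which remodels the phospholipids of the particle, fell by 0.98 and 1.16 (edgeR adjusted p = 0.0481 and 0.0270). Sar1b, the coat protein of the vesicles that carry the particle, fell by 0.89 in the metastasis livers (edgeR adjusted p = 0.0437) and differed by −0.73 in the PMN livers (edgeR adjusted p = 0.0812). Mttp, the transfer protein that lipidates Apob, was not called, with log2 differences of 0.19 and −0.13; it is given here because the step depends on it and was picked after its values were seen. Of the 3 genes of Apob mRNA editing, which makes the short form of the protein, the deaminase Apobec1 rose by 1.07 and 1.05 (edgeR adjusted p = 0.0419 and 0.0357). Its cofactor A1cf fell to 0.234 of the sham level in the metastasis livers (edgeR adjusted p = 0.0176), with a log2 difference of −0.69 in the PMN livers (edgeR adjusted p = 0.226). Of 11 alternatives that kept the compared groups whole, 6 kept each Apobec1 call and 10 the A1cf call.

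Among 13 lipases, lipase regulators and HDL enzymes, 2 were called lower in the PMN livers, and 3 lower and 1 higher in the metastasis livers. Lipc, hepatic lipase, stood at 246 and 263 CPM in sham and between 66.6 and 80.1 CPM in the 4 tumor livers, and fell by 1.70 (SE 0.19, edgeR adjusted p = 0.00962) and 1.85 (SE 0.19, edgeR adjusted p = 0.00668) on the log2 scale. Pon1, an antioxidant enzyme of HDL, fell by 1.01 and 0.89 (edgeR adjusted p = 0.0367 and 0.0400). In the metastasis livers Lipg, endothelial lipase, fell by 3.55 (edgeR adjusted p = 0.0155) and Gpihbp1, the capillary anchor of lipoprotein lipase, rose by 2.05 (edgeR adjusted p = 0.0318; 1.29 without metastasis liver 1 and 2.55 without metastasis liver 2). In the PMN livers these differed by −1.15 and 0.95 (edgeR adjusted p = 0.186 and 0.193), and leaving out 1 liver moved the Lipg value to between −2.06 (without PMN liver 2) and −0.58 (without PMN liver 1). The 4 endothelial markers, listed because Gpihbp1 is an endothelial gene, summed to 36.7 and 45.0 TPM in sham, 90.9 and 104 TPM in PMN and 66.2 and 82.0 TPM in metastasis livers, and their part in the Gpihbp1 result was not tested. Of 4 export transporters, none was called in the PMN livers, while Abcg1 rose by 0.97 (edgeR adjusted p = 0.0457) and the sterol exporter Abcg5 fell by 1.76 (edgeR adjusted p = 0.0336) in the metastasis livers. Of 11 alternatives that kept the compared groups whole, 5 kept the Abcg1 call and 9 the Abcg5 call. The PMN differences were 0.93 (edgeR adjusted p = 0.0604) for Abcg1 and −0.80 (edgeR adjusted p = 0.209) for Abcg5. Of 13 tested uptake genes, Sorl1, a sorting receptor, rose by 3.25 and 3.24 (edgeR adjusted p = 0.0114 and 0.00918), and Mylip, which marks the LDL receptor for degradation, rose by 1.61 in the PMN livers (edgeR adjusted p = 0.0440) and differed by 1.07 in the metastasis livers (edgeR adjusted p = 0.0947).

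Of 20 transcription regulators of hepatic lipid genes, 1 was called lower in PMN and 2 in metastasis livers, and none higher. Cebpa, a hepatocyte factor, fell by 1.70 on the log2 scale in the PMN livers (edgeR adjusted p = 0.0423) and differed by −0.66 in the metastasis livers (edgeR adjusted p = 0.258). In the metastasis livers Ppara, the fatty acid sensor known to act on Apoa1, Apoa2 and Apoc3, fell by 1.38 (edgeR adjusted p = 0.0301), and Mlxipl, the carbohydrate-responsive factor known to act on Apoc3, fell by 2.61 (edgeR adjusted p = 0.0374; −1.97 without metastasis liver 1 and −3.75 without metastasis liver 2). In the PMN livers these differed by −0.26 and −1.32 (edgeR adjusted p = 0.575 and 0.177). Of the 31 calls against sham among these 77 genes, those of Sort1, Sorl1, Saa3, Lipc, Lipg, A1cf and Ppara in the metastasis livers held without at least 1 PMN liver. All were lost without either sham liver, as was every other call over all tested genes. With limma on log2(TPM + 1), a scale that understates the change of low genes, Sorl1 differed by 0.95 and 0.88, Sort1 by 1.37 and 1.34, and in the metastasis livers Lipg by −2.31, Saa1 by 5.62, Saa2 by 5.65 and Saa3 by 4.95, all called except Saa2.

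**Figure D5:**
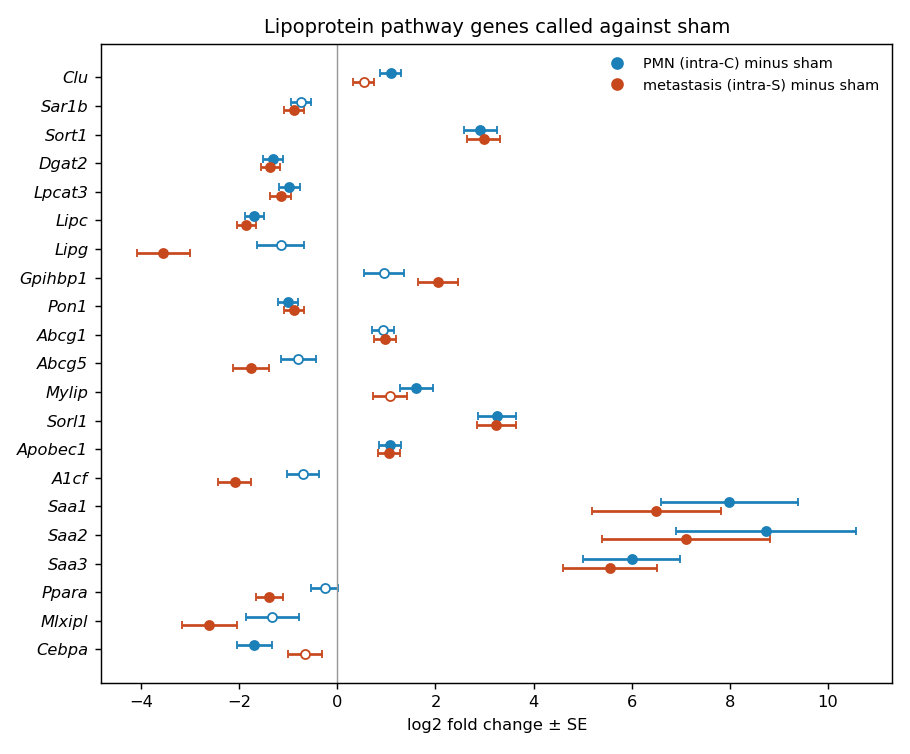
Log2 fold changes against sham with their SE for the 21 lipoprotein pathway genes called in at least 1 comparison, filled where called. Saa1, Saa2 and Saa3 lie furthest to the right (between 5.55 and 8.74), and Lipg in the metastasis livers lies furthest to the left (−3.55).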

How the data were processed

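The deposited files hold raw counts per gene and TPM for the same 6 liver libraries. Per the labels and the study's methods, the authors aligned reads to mm10 with HISAT2 2.1.0, counted uniquely mapped exonic reads with featureCounts (Subread 2.0.6) and derived the deposited TPM from those counts. The annotation and strand setting are not given in the sources used here; the library kit named in the labels does not mark strand. All sample columns were used. The study's methods name no test for these libraries. The raw counts were tested in R 4.3.3 with edgeR 4.0.16 (filterByExpr with a minimum count of 10, TMM, quasi-likelihood F-test, 1 fit over all 6 livers with group as the only term, Benjamini-Hochberg over 16370 genes, threshold 0.05). CPM values are TMM-normalised, log2 CPM uses a prior count of 2, and SEs and 95% intervals come from the same fit. The procedure was tested on simulated data. Positions and sequences come from RefSeq GRCm38.p6 (the mm10 assembly) and exon overlaps from GENCODE. Alternatives were DESeq2 1.42.0, other scalings and filters, limma 3.58.1 on log2(TPM + 1) and log2(TPM + 0.1), fewer livers and a replicate block. The series calls its samples biological replicates without further detail, so p-values measure the spread between these libraries.

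Genes named are the 10 members; genes of the pathway lists called against sham, at most 4 per list and direction by smallest adjusted p; called genes within 100 kb of the clusters; and the 3 genes most like the member with the largest change in each comparison with sham. The apolipoprotein family and the lists were picked with earlier results of these data known.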

Additional observations from a re-analysis of the deposited data

Results flagged for a closer look

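Apoc3 lay on opposite sides of sham in the tumor groups: both PMN livers (971 and 1018 CPM) were below and both metastasis livers (3449 and 2245 CPM) were above the sham livers (1775 and 1933 CPM). The direct difference between metastasis and PMN livers was 1.52 on the log2 scale (SE 0.27, edgeR adjusted p = 0.285). DESeq2 gave an adjusted p of 0.000100. Mttp showed the opposite order, with sham livers at 261 and 246 CPM, PMN livers at 287 and 290 CPM and metastasis livers at 244 and 220 CPM, and a direct difference of −0.31 (SE 0.19, edgeR adjusted p = 0.495). Of the 77 pathway genes, 4 (5.19%) had the tumor groups on opposite sides of sham (Gpld1, Lsr, Mttp and Pon3, each higher in PMN and lower in metastasis livers), as did 603 of all 16370 tested genes (3.68%). Groups of 2 livers are too small for a search for outlying samples.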

How the results depend on the processing

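With DESeq2, 2 of the 10 apolipoprotein genes were called higher and 4 lower for PMN, 2 and 4 for metastasis, and 2 and 1 between the tumor groups; of the pathway genes 13 and 11, 11 and 20, and 2 and 5 were called, beside 10% and 6.31%, 11.5% and 8.03%, and 1.55% and 1.81% of all genes. Library totals in place of TMM gave 0 and 4 apolipoprotein genes in the PMN livers, with 5 and 9 pathway genes there and 5 and 16 in the metastasis livers, and put the median of all genes at −0.25 and −0.23; of all genes it called 3.48% higher and 4.89% lower, and 5.12% and 6.81%, where TMM gave 4.92% and 2.38%, and 6.78% and 3.95%. Scaling to the hepatocyte markers left 0 and 0 apolipoprotein genes in the PMN livers and 0 lower in the metastasis livers, with 1 and 2 pathway genes called lower, and gave a median over all genes of 0.50 and 0.28 with 6.07% called higher and 0.269% lower, and 5.82% and 0.703%. No filter on low counts gave 2 apolipoprotein genes higher in the PMN livers, where 4.3% of all genes were called higher. Fits of only the compared groups gave 3 and 5 apolipoprotein and 24 and 20 pathway genes for PMN (16.3% and 14.2% of all genes), but 0 and 0, and 3 and 3, for metastasis (1.75% and 0.734%). limma on log2(TPM + 1) gave 4 apolipoprotein and 8 pathway genes lower in the PMN livers, and 0 and 5 apolipoprotein and 4 and 21 pathway genes in the metastasis livers, where 6.15% of all genes were called lower for PMN and 4.0% and 9.99% higher and lower for metastasis. limma on log2(TPM + 0.1) gave 0 and 0 apolipoprotein genes and 4 pathway genes higher in the PMN livers, where 2.86% and 2.2% of all genes were called higher and lower. In the metastasis livers it gave 0 apolipoprotein and 3 pathway genes higher, where 4.45% of all genes were called higher. The share of the 10 genes in summed TPM was 5.96%, 4.13% and 5.16% in sham, PMN and metastasis livers, and 7.72%, 6.92% and 8.36% without the 100 most abundant other genes. The causes of these changes were not tested.

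Leaving out each liver in turn gave 0 to 3 apolipoprotein genes higher and 0 to 5 lower for PMN, 0 to 3 and 0 to 4 for metastasis, and 0 to 2 and 0 to 2 between the tumor groups. The counts were 0 without either sham liver or either PMN liver and above those of all 6 livers without either metastasis liver. The pathway counts ran from 0 to 23 and 0 to 19 for PMN, 0 to 19 and 0 to 30 for metastasis, and 0 to 10 and 0 to 23 between the tumor groups. Over all tested genes the share called against sham moved the same way. No gene was called without either sham liver. Fewer were called without either PMN liver, and more without either metastasis liver, than with all 6 livers. These ranges are therefore not particular to the apolipoprotein or pathway genes. With 2 livers per group all calls draw on one shared estimate of the spread, and a lone liver is assumed to vary like the other groups.

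Reversed signs were limited to values near 0. Apob in the metastasis livers was −0.15 with library totals and −0.17 with both TPM fits. Scaling to the hepatocyte markers gave 0.25 for Apoa5 and 0.26 for Ppara in the PMN livers, and −0.0566 for Apoa1, −0.0094 for Apoa2 and −0.0799 for Apoe between the tumor groups, where both TPM fits gave −0.0802 for Apoa1. Leaving out a liver gave −0.36 to 0.41 for Apoa1, −0.13 to 0.42 for Apoa2 and −0.67 to 0.27 for Apom between the tumor groups, and −0.63 to 0.0484 for Ppara in the PMN livers. Of the genes not called with all 6 livers, Apoa1, Apoc2, Apoc3, Apoe and Apom for PMN, Apoa1, Apoa5, Apoc1, Apoc3, Apoe and Apom for metastasis, and Apoa4, Apob, Apoc2 and Apoc3 between the tumor groups passed in at least 1 alternative.

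With a replicate block, 0 and 1 apolipoprotein genes were called higher and lower for PMN and 0 and 2 for metastasis. Of all genes, 4.11% and 1.58%, and 5.83% and 3.38%, were called. Apoa4 was at 4.54 (edgeR adjusted p = 0.0503), Apob had an adjusted p of 0.0694 and Apoc1 of 0.0530. Same-numbered livers did not deviate together (correlations −0.032, 0.083 and 0.043), so the numbers were not taken as pairs.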
